A study of Homo sapiens with 6 samples.

Results

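Chromosomes 16, 17, 19, 20 and 22 are short human chromosomes that are usually described as gene-rich, and their contacts with each other were examined in Hi-C maps of 3 cancer cell lines. All pairs of 40-kb bins that lie on different chromosomes among these 5 were taken, which gave 18688417 usable bin pairs in 10 chromosome pairs, out of 2025066582 usable bin pairs between any chromosomes of 1 to 22 and X. The lines were SNU-C1 (colon cancer), HCC1954 (breast cancer) and OE33 (esophageal adenocarcinoma), each with 1 map, made by in situ Hi-C with the restriction enzyme MboI. No treatment was given to any group, and each line is a single established culture of tumour cells with its own rearranged karyotype. The colon cancer line SW480 was mapped too, but its maps list few pairs between chromosomes and were kept out of the comparisons. Because each line has 1 map, the error given below is the spread between different lines, not between repeated cultures of one line.

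Hi-C joins DNA ends that lie close together in the nucleus and counts the joined fragments. Where regions are equally well covered by reads, a higher count for 2 of them means that they were more often near each other. Chromosomes occupy separate territories, and contacts between them make up the smaller part of a map. Gene-dense and active chromatin is known to gather in one compartment and gene-poor chromatin in another, with gene-dense chromosomes such as 19 lying towards the nuclear interior and gene-poor chromosomes such as 18 towards its edge. The measure used here is observed over expected (O/E), the corrected signal of a group of bin pairs divided by the mean signal over all usable bin pairs between chromosomes in the same map. A value of 1 is thus the average of that map.

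The labels of the chromosomes held only in part. Chromosome 19 had 25.03 protein-coding genes per Mb and chromosome 17 had 14.6, whereas chromosomes 16, 22 and 20 had 9.53, 8.77 and 8.68. These last values are close to those of the long chromosomes 1 (8.39) and 11 (9.76), so by this count only 17 and 19 stood apart in gene density. Genes were divided by the full length, with unsequenced gaps included. Such a gap takes up the first 16050000 bases of chromosome 22, so its density over sequenced bases is higher than stated. All 5 were richer in G and C bases (44.1% on chromosome 20 to 48.4% on chromosome 19) than chromosome 18, which had 39.8% and 3.41 genes per Mb.

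The maps held 135017346 (SNU-C1), 116359220 (HCC1954) and 141120752 (OE33) read pairs, of which 14.8%, 19.6% and 36.6% joined different chromosomes. OE33 was therefore the deepest map between chromosomes, with 51702327 such read pairs against 20003017 in SNU-C1 and 22858042 in HCC1954. These maps list 0 pairs inside a bin, so the shares are of read pairs between different bins, not of whole libraries. In 1-Mb block pairs among the 5 small chromosomes the median was 7 (SNU-C1), 8 (HCC1954) and 33 (OE33) read pairs, so that single block pairs are imprecise in SNU-C1 and HCC1954. Coverage, the read pairs per bin relative to the rest of the line, was uneven. Chromosome 20 was at 1.68 in SNU-C1 and 1.93 in OE33, chromosome 19 at 0.606 in SNU-C1 and 0.696 in HCC1954, and chromosome 18 at 0.533 in OE33.

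Sequence around the cutting site of MboI (GATC, in capitals) is shown for 3 landmark genes, *TSC2* from one of the blocks with the highest contact levels reported below and *CDH11* and *CDH8* from blocks with low ones. Each stretch of 121 bases is centred on the site nearest to the start of the gene and is given on the plus strand of GRCh37, the build of the bins. GATC is its own reverse complement, and 28.6% of all 2536242 gap-free windows of this length on the 5 chromosomes contained it. The sites at *TSC2* (chr16:2097827-2097947), *CDH11* (chr16:65159974-65160094) and *CDH8* (chr16:62071038-62071158) lay 83, 17 and 157 bases upstream of the gene.
TSC2: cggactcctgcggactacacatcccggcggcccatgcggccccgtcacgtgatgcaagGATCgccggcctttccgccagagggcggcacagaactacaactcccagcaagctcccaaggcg
CDH11: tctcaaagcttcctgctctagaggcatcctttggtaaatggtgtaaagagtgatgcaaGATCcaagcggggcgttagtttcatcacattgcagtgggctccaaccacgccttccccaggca
CDH8: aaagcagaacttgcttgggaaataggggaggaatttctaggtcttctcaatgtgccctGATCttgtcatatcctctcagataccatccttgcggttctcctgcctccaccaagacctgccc
The share of G and C was 66.9% at *TSC2*, 51.2% at *CDH11* and 49.6% at *CDH8*. The 1-Mb blocks that hold these starts had 55.0%, 41.0% and 36.9%.

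Chromosomes 16, 17, 19, 20 and 22 met each other about 2 times as often as the average pair of chromosomes. Their mutual O/E was 2.05 (SNU-C1), 2.09 (HCC1954) and 2.01 (OE33), with a mean of 2.05 ± 0.039 (SD, n = 3). These levels rest on 309026, 392954 and 1490696 read pairs. Pairs among the long chromosomes 1 to 6 were at 0.884, 0.846 and 0.889 in the same order, below the average in every line, a direction that turned when chromosome totals set the expected value, as given below. The small chromosomes therefore exceeded the long ones 2.35-fold, a log2 difference of 1.23 ± 0.065 that had the same direction in 3 of 3 lines and was much larger than the spread between lines (exact two-sided sign-flip test over the lines, p = 0.25, the smallest value that 3 lines allow). Against all pairs that held none of the 5, which were at 0.942 ± 0.013, the log2 difference was 1.12 ± 0.043 (3 of 3 lines, p = 0.25, exact).

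**Figure D1:**
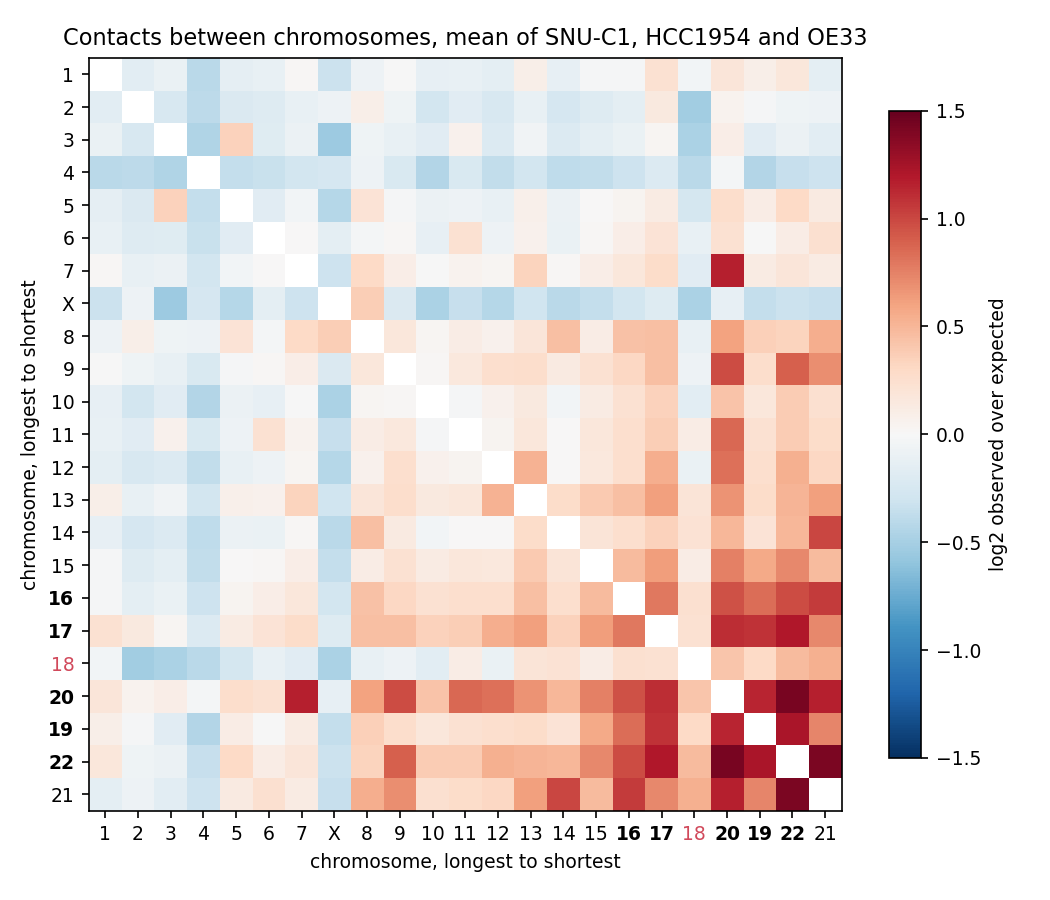
Mean contact level of every pair of chromosomes over SNU-C1, HCC1954 and OE33, as log2 of observed over expected, with chromosomes ordered by length on both axes and the 5 small chromosomes in bold. Red squares above the average gather in the lower right corner, where 16, 17, 19, 20 and 22 and also 21 lie, while chromosome 18, labelled in red, stays pale with them.

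The size of this excess depended on what a chromosome was expected to give to all of its partners. The small chromosomes placed more of their read pairs on other chromosomes than the long ones did. The share was 18.6% to 23.04% on the 5 against 11.7% to 14.5% on 1 to 6 in SNU-C1, 23.6% to 35.9% against 15.3% to 19.9% in HCC1954, and 39.7% to 48.7% against 31.6% to 35.2% in OE33. When the expected value of each pair was taken from the totals of its 2 chromosomes, fitted without pairs on one chromosome, the mutual O/E was 1.38 (SNU-C1), 1.20 (HCC1954) and 1.28 (OE33), a mean of 1.29 ± 0.090. The log2 difference from chromosomes 1 to 6 then fell from 1.23 to 0.27. It was 0.15 when the totals were used as a plain product without a fit, and 0.23 when the maps were corrected again on pairs between chromosomes alone. Against all pairs that held none of the 5, the difference fell from 1.12 to 0.35 with the fit, 0.28 with the product and 0.35 after that correction. Both differences stayed above 0 in all 3 lines. Pairs among chromosomes 1 to 6 were then above 1 in every line, at 1.12 (SNU-C1), 1.04 (HCC1954) and 1.04 (OE33) with the fit and 1.22, 1.13 and 1.13 with the product. The value of SNU-C1 includes pair 3-5, which was at 2.19 there with the fit, against 0.951 in HCC1954 and 1.01 in OE33. The close values of the lines also depended on the correction, since read pairs without it gave mutual levels of 1.77 (SNU-C1), 1.94 (HCC1954) and 3.27 (OE33).

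The 10 chromosome pairs all exceeded the average in every line, under either expected value. Over all chromosomes this held for 82 of 253 pairs (32.4%) with the mean of all pairs as the expected value and for 38 (15%) with fitted totals. Chromosomes 20 and 22 were the highest pair, with O/E of 3.31 in SNU-C1 (95% Poisson interval 3.28 to 3.34), 2.45 in HCC1954 and 2.27 in OE33 (2.26 to 2.29), a mean of 2.68 ± 0.56. These intervals cover counting error only, and SNU-C1 lay well above HCC1954 and OE33. Pairs 19-22 (2.33 ± 0.078) and 17-22 (2.30 ± 0.16) followed, with all 6 values between 2.13 and 2.45. Next came 19-20 (2.20 ± 0.26), 17-20 (2.15 ± 0.18) and 17-19 (2.12 ± 0.29). The 4 pairs with chromosome 16 were the lowest, namely 16-22 (1.97 ± 0.20), 16-20 (1.94 ± 0.18), 16-19 (1.78 ± 0.20) and 16-17 (1.73 ± 0.13). No neighbours in this order differed by more than their spread, but the 3 values of 20-22 all lay above the 3 of 16-17 (1.60, 1.85 and 1.74). With the expected value from chromosome totals, fitted as above, the order changed: 19-22 was the highest at 1.56 ± 0.29 and 16-20 the lowest at 1.15 ± 0.12.

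**Figure D2:**
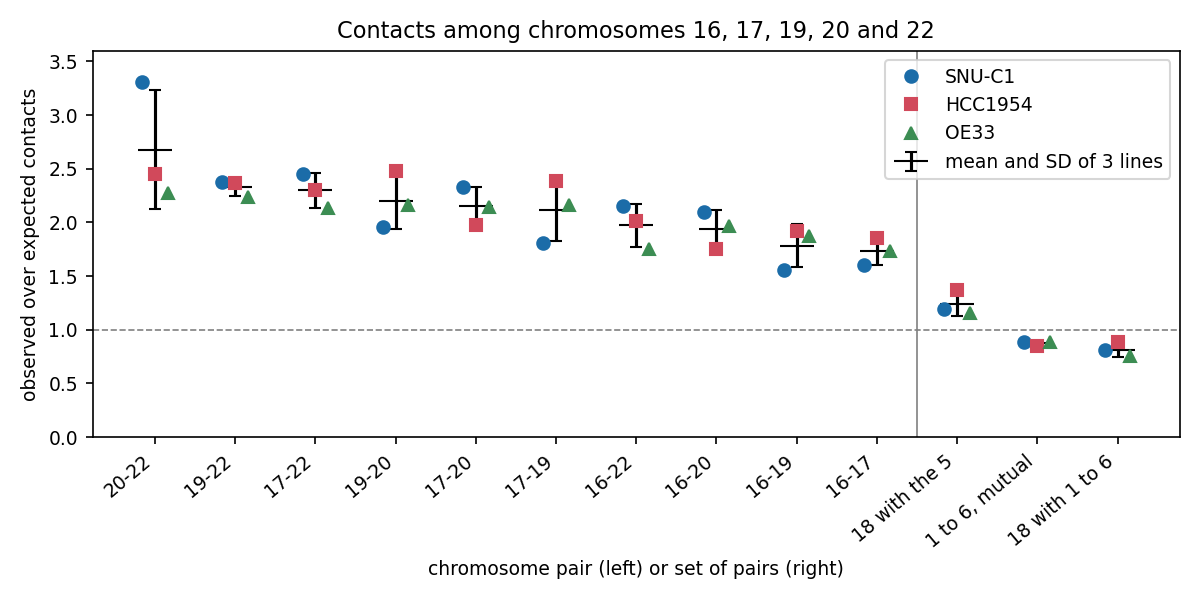
Observed over expected contacts of the 10 pairs among chromosomes 16, 17, 19, 20 and 22, and of 3 sets of pairs for comparison, with 1 point per line and the mean and SD of the 3 lines. Every point of the 10 pairs lies above 1.5, and every point of the pairs among 1 to 6 and of 18 with 1 to 6 below 1. With the expected value from chromosome totals, which is not plotted, the pairs among 1 to 6 were above 1 in every line.

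The lines did not rank the pairs alike. Pairs of chromosome 19 with 16, 17 and 20 were lowest in SNU-C1, where 17-19 had 1.81 against 2.39 in HCC1954 and 2.16 in OE33, and 16-19 had 1.55 against 1.92 and 1.88. With the expected value from fitted totals SNU-C1 was instead the highest for 17-19 (1.56 against 1.42 and 1.35) and 16-19 (1.40 against 1.30 and 1.30), and still the lowest for 19-20 (1.21 against 1.36 and 1.33). Coverage of chromosome 19 was 0.606 (SNU-C1), 0.696 (HCC1954) and 1.20 (OE33), and its part in these values was not tested. With the mean of all pairs as the expected value, SNU-C1 had the highest value for 20-22, 17-22, 17-20, 16-20, 16-22 and, narrowly, 19-22. With fitted totals this order held except for 16-20, where OE33 was higher (1.26 against 1.17). Among the 253 pairs of chromosomes in all, the 10 held 6 of the first 10 ranks by mean O/E and all of them were within the first 20. By the expected value from totals they held 4 of the first 10, and the last of them ranked at 32.

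The 5 chromosomes were not alone at the top of this order. Pair 21-22 was second with a mean of 2.67 ± 1.18, made of 3.03 (SNU-C1), 3.63 (HCC1954) and 1.35 (OE33). Chromosome 21, the shortest autosome, has 4.76 genes per Mb of full length, and its level with the 5 small chromosomes (1.99 ± 0.47) was between those of chromosomes 17 (2.02) and 16 (1.83). Its levels with them were 2.36 (SNU-C1), 2.14 (HCC1954) and 1.46 (OE33). Pair 7-20 reached 4.28 in SNU-C1, the line in which it stood apart, against 1.08 in HCC1954 and 1.38 in OE33. Pairs 9-20 and 9-22 were at 2.86 and 2.87 in HCC1954 and at or below 1.67 in SNU-C1 and OE33.

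Over the 18 chromosomes outside the 5, the level with them followed chromosome length more than gene density. Spearman's rho across these chromosomes was -0.74 with length, 0.45 with the share of G and C, and 0.04 with genes per Mb of full length, gaps included. With the expected value from totals the coefficients were -0.76, 0.61 and 0.15. They are descriptions across chromosomes that share the same maps, without a test. Chromosome 15 (1.53 ± 0.10) followed 21, chromosomes 1, 2 and 3 were at 1.09, 1.004 and 0.977, and X (0.845 ± 0.12) and 4 (0.841 ± 0.13) were the lowest. Chromosome 11, which has more genes per Mb of full length than 20 or 22 but is longer, was at 1.35 ± 0.21.

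**Figure D3:**
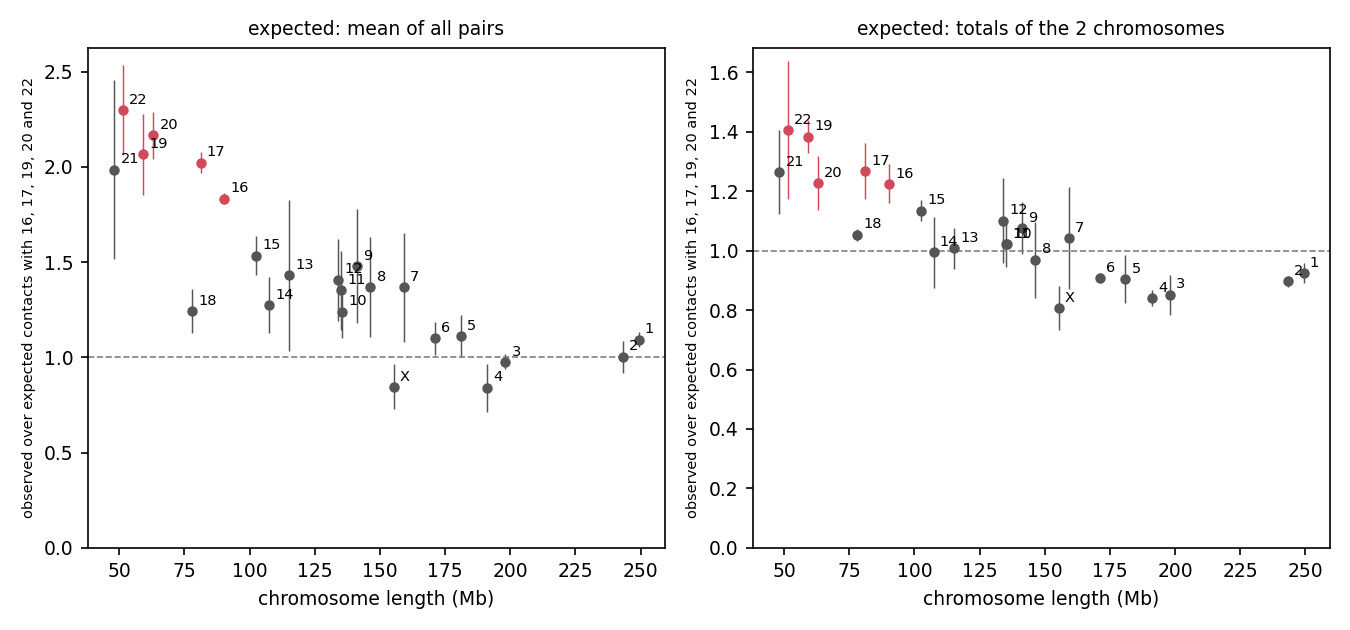
Level of each chromosome with chromosomes 16, 17, 19, 20 and 22 (itself left out) against its length in Mb, mean and SD of 3 lines, with the 5 in red. The left panel divides by the mean of all pairs and the right by the value expected from the totals of both chromosomes; levels fall with length in both, chromosome 21 lies among the 5, and 18 lies below 16 and 17, the chromosomes nearest to its length, in both.

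Chromosome 18 is the usual gene-poor counterpart of 19 and is close to 17 in length. It met the 5 small chromosomes at an O/E of 1.20 (SNU-C1), 1.37 (HCC1954) and 1.15 (OE33), a mean of 1.24 ± 0.12, far below their mutual level in every line. This takes blocks of all gene densities together, and values at like density are given below. It met chromosomes 1 to 6 still less, at 0.807, 0.883 and 0.752 (mean 0.814 ± 0.066). The log2 level of 18 with 1 to 6 was thus below that with the small chromosomes, by a difference of -0.61 ± 0.036 with the same direction in 3 of 3 lines (p = 0.25, exact). With the expected value from fitted totals this difference was -0.13, and HCC1954 was at 1.002 for 18 with 1 to 6. Under it chromosome 18 was at 1.03 (SNU-C1), 1.07 (HCC1954) and 1.06 (OE33) with the small chromosomes. These values were still below their mutual 1.38, 1.20 and 1.28, but by smaller gaps. With the mean of all pairs as the expected value, the means of 18 with single partners were 1.39 ± 0.43 with 22, 1.34 ± 0.053 with 20, 1.23 ± 0.13 with 19, 1.18 ± 0.14 with 16 and 1.17 ± 0.10 with 17. Of these partners 22 was the highest in HCC1954 alone (1.87), and it was the lowest in OE33 (1.03). Chromosome 20 was the highest of them in SNU-C1 (1.40) and OE33 (1.32). The order of the means changed with fitted totals, to 1.14 ± 0.051 with 19, 1.12 ± 0.18 with 22, 1.10 ± 0.061 with 16, 0.993 ± 0.13 with 20 and 0.992 ± 0.036 with 17. The short arm 18p was at 1.77 ± 0.52, with 2.37 in HCC1954 alone above both other lines (1.56 and 1.39), whereas 18q was at 1.11 ± 0.019.

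The arms of chromosomes 16 and 20 differed in all 3 lines. On chromosome 16 the short arm, with 13.7 genes per Mb, had a level of 2.05 ± 0.10 with the other small chromosomes and the long arm, with 6.84, had 1.69 ± 0.10. Genes per Mb were counted over all blocks of an arm, and those of 16q include the longest unsequenced gap of the chromosome, which lowers its value. On chromosome 20 it was the long arm that was higher (2.33 ± 0.10 against 1.93 ± 0.17), and it was also the denser one (9.5 against 7.15 genes per Mb). The arms of 17 (1.99 and 2.03) and 19 (2.11 and 2.03) differed by less than the spread between lines. Among the 32 pairs of arms, 20q-22q was the highest at 2.92 ± 0.59 and 16q-19p the lowest at 1.54 ± 0.23. Pair 19q-20q reached 3.28 in HCC1954 against 2.00 in SNU-C1 and 2.31 in OE33, and it is one of the places where HCC1954 had block pairs of its own, described below.

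In 1-Mb blocks the excess over the mean of all pairs was spread along nearly the whole of the 5 chromosomes. That mean was the only expected value run for levels of single blocks. With fitted totals, whole chromosome pairs came as low as 1.02 (17-20 in HCC1954). Of 349 blocks, 283 had at least 13 usable bins of 25, and their mean O/E with the other 4 chromosomes ran from 0.947 to 3.64 with a median of 2.04. The level was above 1 in all 3 lines in 274 of the 283 blocks, against 47.6% of the 2664 such blocks of all chromosomes. All 283 were higher with the other small chromosomes than with chromosomes 1 to 6 in all 3 lines, but so were 63.7% of the blocks of all chromosomes. On chromosome 18, 49 of 71 blocks were higher with the small chromosomes than with 1 to 6 in all lines, 40 were above 1 with the small ones in all lines and 22 were below 1 in all lines. Every counted block of chromosomes 17, 20 and 22 was above 1 in all 3 lines, as were 64 of 70 on chromosome 16 and 47 of 50 on 19.

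The 10 highest counted blocks were all gene-dense, and most of them lay near chromosome ends. The first Mb of 16p had 11 usable bins and was therefore not counted, but its mean was higher than theirs at 3.91 ± 0.41. The last full Mb of 20q (62 to 63 Mb), which holds *MYT1* and *ZBTB46* and also *EEF1A2*, a translation elongation factor of brain and muscle, was at 4.09 (SNU-C1), 3.62 (HCC1954) and 3.21 (OE33), a mean of 3.64 ± 0.44. Its level with chromosomes 1 to 6 was 1.25 ± 0.050. The neighbouring block (61 to 62 Mb, *DIDO1*, *NTSR1*, *SLCO4A1*) was second at 3.35 ± 0.49. On 16p the blocks at 2 to 3 Mb (*PDPK1*, *ABCA3*, *PKD1*) and 3 to 4 Mb (*CREBBP*, *DNASE1*) were at 3.27 ± 0.17 and 3.06 ± 0.014, and the block at 89 to 90 Mb of 16q (*ANKRD11*, *FANCA*) was at 3.05 ± 0.40. Chromosome 20 supplied the remaining 4 of the first 10 besides 17q: 3 to 4 Mb (*ATRN*, *DNAAF9*, *RNF24*; 2.96 ± 0.13), 34 to 35 Mb (*PHF20*, *EPB41L1*, *CNBD2*; 2.94 ± 0.038), 2 to 3 Mb (*TMC2*, *STK35*; 2.92 ± 0.31) and the first Mb (*CSNK2A1*, *ANGPT4*, *RSPO4*; 2.91 ± 0.48).

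The block at 37 to 38 Mb of 17q (*FBXL20*, *CDK12*, *PLXDC1*) was the third in rank but behaved differently. It was at 2.27 (SNU-C1), 4.30 (HCC1954) and 3.28 (OE33), and it was raised with chromosomes 1 to 6 as well in the last 2 of these lines (2.25 and 1.86, against 0.751 in SNU-C1). Its read pairs with the small chromosomes numbered 38319 in HCC1954 and 51278 in OE33, against 2228 in SNU-C1. The part of that coverage in the level was not tested.

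The lowest blocks formed one run on 16q from 60 to 65 Mb, where almost no gene starts lie. Their means ran from 0.947 ± 0.056 at 62 to 63 Mb, which holds the start of *CDH8*, a cadherin of neurons, to 1.02 ± 0.073 at 60 to 61 Mb. In the lowest block the levels were 0.978, 0.883 and 0.980, below the map average in all 3 lines and still above its own level with chromosomes 1 to 6 (0.757 ± 0.14). The share of G and C in these 5 blocks was 36.1% to 37.01%.

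Across the 283 blocks the level followed base composition more closely than gene number. Spearman's rho of the mean level was 0.77 with the share of G and C, 0.63 with the number of protein-coding starts and 0.51 with the number of MboI sites. On chromosome 19 alone the rho with gene number was 0.26 and that with G and C 0.75, while on chromosome 22 the order was the other way round (0.75 and 0.56). Levels of the same block in 2 lines had a rho of 0.73 to 0.83. SNU-C1 had the weakest relation with gene number (0.35, against 0.69 in HCC1954 and 0.72 in OE33). Neighbouring blocks and blocks of one map are not independent, so these values are descriptions.

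**Figure D4:**
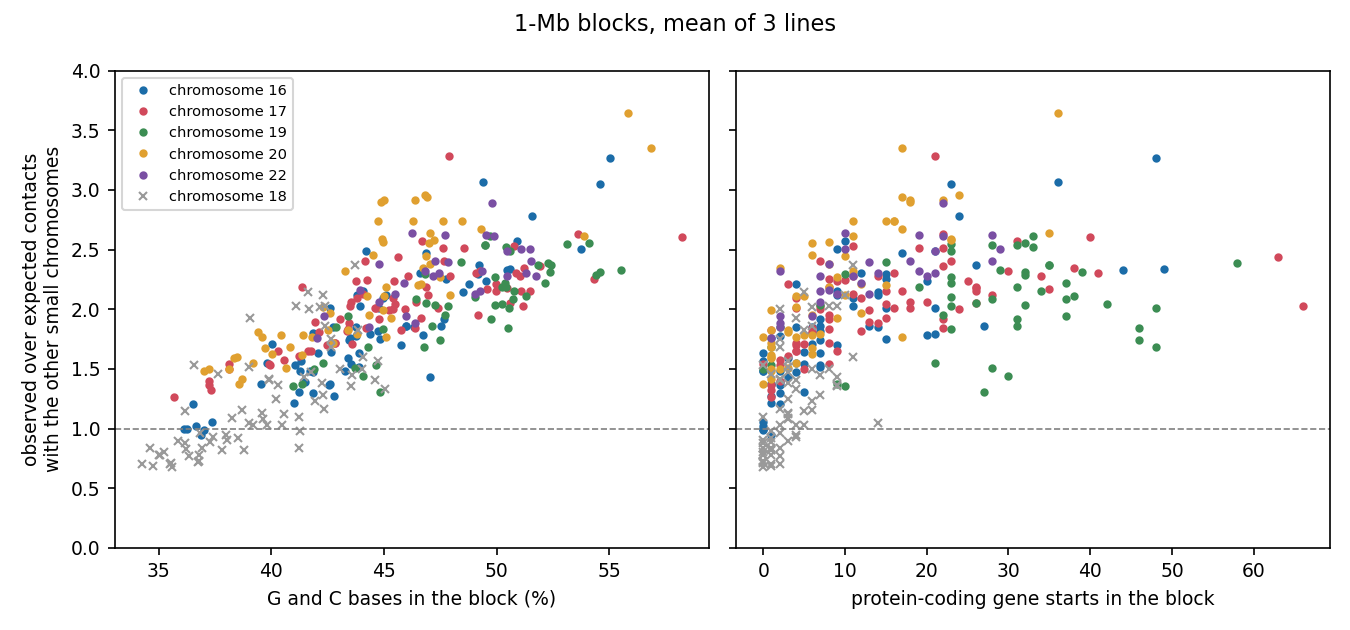
Level of each counted 1-Mb block with the other small chromosomes, mean of 3 lines, against the share of G and C bases (left) and the number of protein-coding gene starts (right), coloured by chromosome, with blocks of chromosome 18 as crosses. Points rise with G and C on every chromosome, and most blocks of 18 lie at the lower left, with a median of 1.13 against 2.04 for the 5.

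The landmark genes showed the same order by the gene density of their blocks, where dense means at least 15 protein-coding starts per Mb and poor fewer than 5. Of 39 landmark genes, 36 lay in counted blocks, and 2 blocks held 2 of them each. The rest lay in blocks with too few usable bins, at means of 2.73 to 3.91. Of the 36, the 20 in dense blocks had a median level of 2.40 (1.95 to 3.64), all above 1 in every line. Of all 283 counted blocks, 274 were above 1 in every line. The medians over all dense, medium and poor blocks were 2.30, 2.05 and 1.57. Landmarks in dense blocks included *EEF1A2* (3.64), *TSC2*, a suppressor of growth signalling (3.27), the acetyltransferase genes *CREBBP* (3.06) and *EP300* (2.63 ± 0.080), and the kinase gene *SRC* (2.74 ± 0.049). The 9 in medium blocks had a median of 2.03 (1.37 to 2.28), with *GNAS*, a G protein subunit, at 2.21 ± 0.26 and the zinc finger gene *ZNF91* lowest at 1.37 ± 0.30. The 7 in poor blocks had a median of 1.497 (0.947 to 1.83). *SOX9*, a developmental transcription factor, was the highest of them at 1.83 ± 0.096, its neighbour *KCNJ2* was at 1.40 ± 0.012, and the cadherins *CDH11* and *CDH8* were at 1.21 ± 0.16 and 0.947.

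When both blocks were gene-dense, contacts among the small chromosomes were at 2.81 (SNU-C1), 3.24 (HCC1954) and 2.93 (OE33), a mean of 2.99 ± 0.22. When both were gene-poor they were at 2.21, 1.72 and 1.71 (1.88 ± 0.29). The log2 difference was 0.34, 0.91 and 0.77 (0.68 ± 0.29, 3 of 3 lines, p = 0.25, exact), and in SNU-C1 it was -0.01 on read pairs without correction. Mixed pairs of a dense and a poor block were the lowest class at 1.38 ± 0.068, below pairs of 2 poor blocks in every line. Classes with a medium block lay between these extremes, at 2.16 ± 0.097 with dense blocks, 2.15 ± 0.16 with each other and 1.69 ± 0.17 with poor blocks.

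At equal density class the small chromosomes still exceeded chromosomes 1 to 6. Pairs of 2 dense blocks on 1 to 6 were at 1.75, 1.96 and 1.69, so the small ones were 1.66-fold higher (log2 0.73 ± 0.053, 3 of 3 lines, p = 0.25, exact). This direction reversed with the expected value from chromosome totals, under which the log2 difference was -0.14 when fitted without pairs on one chromosome and -0.27 as the plain product. After correction on pairs between chromosomes alone it kept its direction in all 3 lines at 0.19. With the mean of all pairs as the expected value, the only one run for the other classes, the ratio of small to long was larger there, 1.82 for dense with medium, 1.85 for dense with poor, 2.05 for medium with medium, 2.11 for medium with poor, and 2.28 ± 0.14 for 2 poor blocks, whose level on chromosomes 1 to 6 was 0.826 ± 0.11. The 5 chromosomes also differ from 1 to 6 in how many blocks fall in each class, with 120 dense, 90 medium and 73 poor against 98, 453 and 611. Chromosome 18 had 0 dense, 21 medium and 50 poor blocks. Its pairs of 2 medium blocks with the small chromosomes were at 1.69 ± 0.24, against 2.15 ± 0.16 among the small ones. In HCC1954 these levels were 1.96 and 2.09. Pairs of 2 poor blocks were at 1.35 ± 0.14 against 1.88 ± 0.29. Both classes were lower for chromosome 18 in every line.

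**Figure D5:**
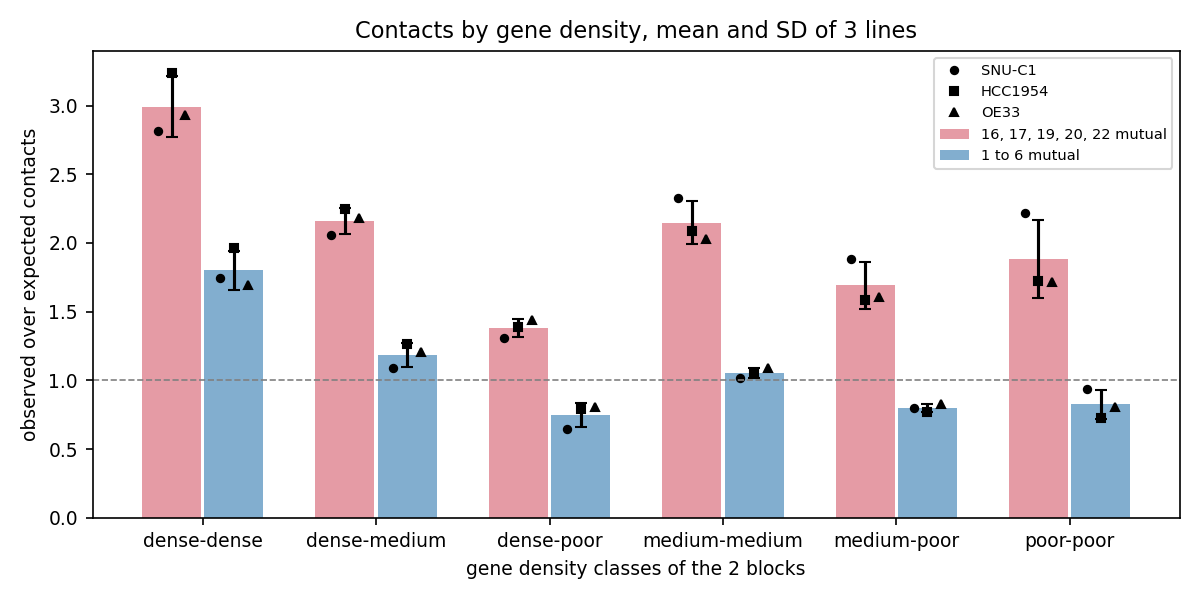
Mean observed over expected contacts of 1-Mb block pairs by the gene density classes of both blocks, for the 5 small chromosomes (red) and chromosomes 1 to 6 (blue), with the SD and the value of each of 3 lines. In every class the red bar is higher, and dense-dense is the highest class and dense-poor the lowest class of each set.

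Block pairs that were high in all lines were common among the small chromosomes. An O/E of at least 2 in all 3 lines was found in 6590 of 31400 block pairs (21.0%), against 1.01% of all 3357270 block pairs between chromosomes. The share was 0.307% among chromosomes 1 to 6 and 2.63% for chromosome 18 with the small ones. Among the 10 chromosome pairs it ran from 12.6% in 16-17 and 16-19 to 33.4% in 20-22. It was 53.3% where both blocks were dense, 3.90% where one was dense and the other poor, and 8.80% where both were poor. The same classes on chromosomes 1 to 6 had 12.9%, 0.103% and 0.0472%. There 3548 block pairs were of 2 dense blocks and 154763 of 2 poor ones, against 5423 and 1931 among the small chromosomes. With at least 10 read pairs required in every line, 4507 block pairs of the small chromosomes were called (14.4%, against 0.703% over all chromosomes). The cut of 2 lies near their mutual level of 2.05. Only the mean of all pairs was used as the expected value for these counts.

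The block pairs with the highest minimum over the lines mostly joined chromosome ends. The first Mb of 17p (*VPS53*, *NXN*, *RPH3AL*) and the block at 62 to 63 Mb of 20q had an O/E of 15.1 (SNU-C1), 11.1 (HCC1954) and 10.1 (OE33), on 20, 11 and 74 read pairs. The same block of 20q was at 15.5, 9.15 and 9.08 with 89 to 90 Mb of 16q. With 2 to 3 Mb of 16p it was at 10.2, 8.33 and 9.21, and with 1 to 2 Mb of 17p (*RTN4RL1*, *RPA1*, *SLC43A2*) at 7.98, 10.8 and 8.04. The remaining one, 2 to 3 Mb of 16p with 79 to 80 Mb of 17q (*NPLOC4*, *BAIAP2*, *BAHCC1*), was at 11.9, 15.2 and 8.12. The pair of 16p with 20q rested on 7 read pairs in HCC1954, with exact Poisson limits of 2.81 and 14.4. That of 16p with 17q rested on 9 in SNU-C1 and 9 in HCC1954. The limits of 11 read pairs are 5.49 and 19.7, so the order of these 5 is not settled and their single values are imprecise. Without chromosome ends and centromeres the mutual level of the 5 chromosomes was 2.03, against 2.05 with them.

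Line-specific block pairs, with an O/E of at least 4 that was also at least 4 times that of both other lines after 0.5 was added, were few among the small chromosomes. Of 31400 block pairs, 2 were specific to SNU-C1, 38 to HCC1954 and 0 to OE33, where the shares over all chromosomes were 0.17%, 0.397% and 0.0696%. The share among the small chromosomes was 0.121% in HCC1954, below that over all chromosomes. Because the rule asks for a multiple of the other lines, pairs that are high in all lines need a higher O/E to be called. The lower share is therefore no measure of how alike the lines are among the members. On read pairs without correction OE33 had 553 (1.76% of the members, against 0.305% over all chromosomes), so its count of 0 depended on the correction. Leaving out line-specific block pairs everywhere gave a mutual level of 2.09. With so few of them among the members, this run could hardly lower the level.

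The 38 pairs of HCC1954 fell almost entirely on 3 chromosome pairs. In 12 block pairs, 75 to 86 Mb of 16q met 46 to 48 Mb of chromosome 22 at O/E of 9.5 to 32.1 with 1071 read pairs. The highest named pair there joined 75 to 76 Mb (*CFDP1*, *TERF2IP*, *ZNRF1*) to 46 to 47 Mb (*CELSR1*, *ATXN10*, and *PPARA*, a lipid-sensing nuclear receptor), with 32.1 on 226 read pairs against 1.67 and 1.68 in SNU-C1 and OE33. A second one, 80 to 81 Mb (*CDYL2*, *DYNLRB2*) with the same block of 22, was at 13.9 on 88 read pairs. In 12 more, 5 to 32 Mb of chromosome 20 met 21 to 25 Mb of 22 at 8.47 to 57.2, among them 31 to 32 Mb (*NOL4L*, *EFCAB8*) with 24 to 25 Mb (*CABIN1*, *SPECC1L*) at 50.7 on 216 read pairs against 5.14 and 3.54. The third set of 13 joined 37 to 47 Mb of 19q to 30 to 41 Mb of chromosome 20, at 5.35 to 21.6 on 881 read pairs. A single further pair, 19 with 22, had 7 read pairs.

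The 2 pairs of SNU-C1 stood alone. One joined 59 to 60 Mb of 20q to 44 to 45 Mb of 22 (*PARVB*, *SHISAL1*, *SAMM50*), at 10.5 on 58 read pairs against 0.07 and 1.36 in HCC1954 and OE33. The other joined 31 to 32 Mb of 19q (*TSHZ3*) to 27 to 28 Mb of 22 (*CRYBA4*), at 7.21 on 24 read pairs against 0.70 and 1.11. No break-ends were examined here.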

How the data were processed

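In situ Hi-C of SNU-C1, HCC1954, OE33 and SW480 (MboI) was aligned by the authors to hg19 with BWA, cleared of duplicates with Picard and normalized by iterative correction (versions not stated). Each deposited file lists, for pairs of 40-kb bins, a signal: contact frequency after that correction. The 6 deposited maps comprise 1 of each line named first and 3 of SW480. The methods state that Hi-C was done in duplicate, without saying whether the single maps pool both. Of the pairs listed among the small chromosomes, the SW480 map without a replicate number held 4237, the sum of 2110 and 2127 in its replicates, and it was not counted as a further sample.

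Read pairs were recovered by fitting a factor for each bin in 45 iterations, and 100% of the tested values up to 20.5 were whole within 0.02. They gave depth, coverage and the exact 95% Poisson intervals, which cover counting error only. Bins needed 0.25 of the median coverage in all 3 lines (65431 of 75918 bins; 6900 of 8627 on the small chromosomes), and 1-Mb blocks 13 of 25 such bins. Every level is a sum of signal over its expected value, and sets of pairs were compared within each line, with exact two-sided sign flips of these differences over the lines. Genes are protein-coding entries of GENCODE 44 lifted to GRCh37, whose chromosome lengths matched the bins.

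Named are all 10 chromosome pairs, the 10 highest and 5 lowest blocks with up to 3 of their longest genes (entries known only by an identifier are left out, and 1 gene is not reported here), the 5 block pairs with the highest minimum over the lines, up to 3 line-specific ones per line, and 39 landmark genes, given by class with examples. Partners outside the 5, the regions of line-specific pairs and the arms were described after their values were seen. The members and lists were chosen with earlier results of these data known. Alternatives were another expected value, other corrections, medians, block sizes, coverage limits, gene classes, and leaving out a chromosome or line. On simulated maps at the depth of SNU-C1, 200 of 31400 block pairs were raised to 20 times the mean, and 100% of these were recovered. The block pairs called in SNU-C1 were lower, at 7.21 and 10.5, and recovery at such levels was not tested. Calculations ran in Python 3.11.15 with SciPy 1.17.1 and NumPy 2.4.6, tables in pandas 2.3.3 and plots in Matplotlib 3.10.9.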

Additional observations from a re-analysis of the deposited data

Results flagged for a closer look

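The SW480 maps list a small number of pairs between chromosomes, and how these were kept is not known. In SW480 replicate 1, 2110 bin pairs among the 5 small chromosomes, of 159911 listed between chromosomes, gave an O/E of 1.43 (95% Poisson interval 1.37 to 1.49), and in replicate 2, 2127 of 164184 gave 1.40 (1.34 to 1.46). Listed bin pairs were counted, not read pairs, and these maps lie outside those compared. That the counts are above 0 says nothing of the level. Pairs among chromosomes 1 to 6 were at 0.822 and 0.831, a ratio of 1.74 and 1.69, and chromosome 18 with the small ones was at 1.06 and 0.984. Of the 10 chromosome pairs, 9 and 8 were above 1; 16-19 was below in both (0.812 and 0.722), and 20-22 (2.37 and 2.02) and 17-20 (2.17 and 2.04) were the highest. Pairs of 2 gene-dense blocks on the small chromosomes were at 1.65 and 1.64, below pairs of 2 gene-poor blocks at 1.87 and 2.08, the opposite of the order in the corrected maps of the other lines. The SW480 values carry no whole-genome correction. Read pairs without it gave 2.13 for dense and 2.14 for poor in SNU-C1, 3.32 and 1.27 in HCC1954, and 5.80 and 1.72 in OE33, and ratios of small to long of 2.20, 2.38 and 4.30, which are not directly comparable.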

How the results depend on the processing

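The comparisons of small with long chromosomes, of small with all other pairs, of chromosome 18 and of dense with poor blocks kept their direction in the mean of the lines under every alternative run, but not their size. The log2 difference of small from long chromosomes was 0.15 with the expected value as the plain product of the chromosome totals and 0.27 when the totals were fitted without pairs on one chromosome. Against all other pairs it was 0.28 and 0.35, and for chromosome 18 it was -0.07 and -0.13. The direction reversed in the comparison of dense blocks on small and long chromosomes, at -0.27 with the product and -0.14 with the fit, a setting added after the data were seen. The mutual level of 2.05 was 1.29 with each of these 2 settings and 1.29 after correction on pairs between chromosomes alone. It was 2.33 ± 0.82 without iterative correction, where OE33 moved from 2.01 to 3.27, and 1.81 as a median over block pairs, 2.09 without line-specific block pairs and 1.99 at a coverage of at least 0.5. It was 2.24, 1.97 and 1.97 without chromosomes 16, 20 and 22. The highest chromosome pair was 19-22 at 1.53 with the product.

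Leaving out 1 line gave mutual levels of 2.03 to 2.07, log2 differences of 1.19 to 1.26 against 1 to 6 and 1.10 to 1.14 against all other pairs, -0.63 to -0.59 for chromosome 18, 0.56 to 0.84 for dense against poor blocks, and 0.70 to 0.76 for dense blocks on small against long chromosomes. Line-specific counts for SNU-C1, HCC1954 and OE33 were 383, 508 and 68 with 500-kb blocks (0.314%, 0.417% and 0.0558% of the members, against 0.414%, 0.564% and 0.0805% over all chromosomes) and 29, 79 and 4 with a fold of 3 (0.0924%, 0.252% and 0.0127%, against 0.364%, 0.661% and 0.122%). With 2-Mb blocks SNU-C1 had 0 (0.163% over all chromosomes) and HCC1954 5 (0.0634%, against 0.393%), and without correction OE33 had 553 (1.76%, against 0.305%). Block pairs high in all lines numbered 1914 with 2-Mb blocks (24.3%, against 0.992%), 19245 with 500-kb blocks (15.8%, against 1.06%) and 12034 at an O/E of 1.5 (38.3%, against 3.3%). In 500-kb blocks read pairs per block pair are few.

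No paired analysis was possible because replicate numbers exist for SW480 only and pair no samples of the 3 lines; the sign flips compare sets of pairs within each line. With 3 maps the exact test cannot go below p = 0.25, and line, depth and karyotype cannot be told apart.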
